A study of Mus musculus with 80 samples.

Results

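The grafts of 2 separate transplantation experiments were compared at the level of whole RNA libraries. All 20 RNA libraries made after grafting were taken by the experiment named in their labels, 8 from Experiment 1 and 12 from Experiment 2, out of 40 RNA libraries in the study. Libraries outside the quality limits of the study were kept. MuSCs (muscle stem cells, marked by the transcription factor Pax7) were sorted by FACS from extraocular muscle (EOM) and *Tibialis anterior* (TA) of male *Tg*:*Pax7-nGFP* mice on a C57BL/6;DBA2 F1/JRj background, in which the *Pax7* locus drives a nuclear GFP. EOM and TA cells of 1 donor were injected into the opposite TA muscles of 1 recipient of the strain Rag2-/-;γC-/-, which lacks T, B and NK cells, after both muscles had been injured with 50 µl of cardiotoxin 24 h earlier. GFP+ cells were sorted again from the grafted muscles, at day 21 according to the labels, and their polyadenylated RNA was sequenced with the G&T protocol for very small cell numbers.

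Experiment 1 had 4 donors aged 7.6 weeks and Experiment 2 had 6 donors aged 7 weeks, and each donor gave an EOM graft and a TA graft. The labels give at least 100 sorted cells for each EOM graft of Experiment 1 and 24 to 43 cells for its TA grafts, against 9 to 60 and 16 to 67 cells in Experiment 2. Other information of the study gives larger cell numbers for some of these libraries, and the label values were used. Age and experiment run together in these samples, as does a mark in the titles that the labels do not explain, so that what belongs to each cannot be told apart. The mouse number marks the same donor only within an experiment.

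Most RNA of a cell is ribosomal, and selection of poly(A) tails removes most of it before sequencing. The mitochondrial genome of the mouse encodes 13 proteins, all subunits of the respiratory chain. Most of their short intronless mRNAs carry poly(A) tails, so that these enter such libraries beside nuclear mRNAs. The exon share is a common measure of library quality, because intronic reads come from unspliced RNA or from genomic DNA. In these data it is the share of reads in genes that lie in exons, so that intergenic reads lower only the share of reads in genes. Quiescent muscle stem cells are known for a low mitochondrial content, which increases when they are activated.

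The exon share was lower in Experiment 1. Of the reads in genes, 59.9%, 55.8%, 71.4% and 62.1% lay in exons in the 4 EOM grafts of Experiment 1, in the order of mice 1, 3, 4 and 5. The 4 TA grafts had 51.1%, 70.0%, 56.1% and 61.1%. In Experiment 2 the exon share ran from 68.7% through a median of 76.3% to 80.9% in EOM grafts, and from 69.0% through 73.8% to 79.4% in TA grafts. The 2 experiments overlapped, since the EOM graft of mouse 4 and the TA graft of mouse 3 of Experiment 1 lay within the range of Experiment 2, whereas the other 6 libraries lay below every library of Experiment 2. With the donor as the replicate, the exon share was 60.9% ± 3.73 (SD, n = 4) against 74.8% ± 1.89 (SD, n = 6), a difference of -13.9 percentage points (exact permutation test over donors, two-sided, p = 0.00952, adjusted p = 0.0167 over 7 measures). This is the smallest p that 4 against 6 donors can give. Mitochondrial mRNAs lack introns, so their reads count as exonic and a larger mitochondrial share raises the exon share. Mitochondrial genes held 5.59% to 13.3% of counts on genes in Experiment 1 and 23.3% to 81.1% in Experiment 2. The exon share of nuclear reads alone was not computed, so the part of mitochondrial reads in this difference was not tested. The study kept libraries with at least 70% of reads in genes and 65% in exons, and 2 grafts of Experiment 1 and all 12 of Experiment 2 met both limits.

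The share of reads in genes followed the same order with a wider overlap. It ran from 67.2% through 72.6% to 88.3% in the 8 grafts of Experiment 1 and from 75.5% through 84.0% to 91.7% in the 12 of Experiment 2. Donor means were 74.3% ± 3.68 (SD, n = 4) and 84.4% ± 2.76 (SD, n = 6), a difference of -10.1 points (exact permutation test, p = 0.00952, adjusted p = 0.0167). This call was lost without the TA graft of mouse 4 of Experiment 1 (adjusted p = 0.1, exact permutation test) and among EOM grafts alone (adjusted p = 0.16, exact permutation test). Among grafts within the limits of the study, 2 of which belong to Experiment 1, the difference was only -0.648 points.

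Mitochondrial reads separated the experiments completely. They took 4.58%, 5.39%, 3.85% and 4.91% of reads in the 4 EOM grafts of Experiment 1 and 3.72%, 5.45%, 4.10% and 4.86% in the 4 TA grafts. In Experiment 2 the share ran from 15.9% through 35.1% to 59.6% in EOM grafts and from 16.4% through 27.1% to 46.8% in TA grafts. No library of Experiment 1 reached the lowest library of Experiment 2. The 8 values of Experiment 1 lay within 2 points of each other, and the exon share of these libraries ran from 51.1% to 71.4%. Donor means were 4.61% ± 0.67 (SD, n = 4) and 32.1% ± 11.5 (SD, n = 6), a difference of -27.5 points (exact permutation test, p = 0.00952, adjusted p = 0.0167). The difference was -31.3 points among EOM grafts and -23.7 points among TA grafts (adjusted p = 0.0333 in each, exact permutation test). The difference in EOM minus that in TA, -7.63 points, did not pass the test (adjusted p = 0.817, exact permutation test), nor did that of any of the 7 measures.

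Reads in rRNA were few in both experiments and did not overlap either. Their share ran from 0.227% through 0.282% to 0.502% in Experiment 1 and from 0.567% through 1.38% to 9.44% in Experiment 2, where the EOM graft of mouse 3 held the highest value. Donor means were 0.312% ± 0.0506 (SD, n = 4) and 1.99% ± 1.72 (SD, n = 6), a difference of -1.68 points (exact permutation test, p = 0.00952, adjusted p = 0.0167). Without the EOM graft of mouse 3 of Experiment 2 the difference was -1.02 points (adjusted p = 0.0222, exact permutation test), and the difference of medians over donors was -1.07 points. Leaving out the TA graft of mouse 1 of Experiment 2 ended this call (-1.52 points, adjusted p = 0.0833, exact permutation test).

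The share of genes measured, total depth and strand gave no call. Genes measured made up 48.4% through 59.7% to 65.9% of genes in Experiment 1 and 42.6% through 54.3% to 61.8% in Experiment 2, a difference of 5.42 points in donor means (exact permutation test, p = 0.105, adjusted p = 0.147). Without the TA graft of mouse 5 of Experiment 1, which holds 1139937 reads, that difference was 6.82 points with an adjusted p of 0.04 (exact permutation test). Total reads ran from 1139937 to 10526422 in Experiment 1 and from 5243925 to 9472455 in Experiment 2 (exact permutation test, adjusted p = 0.8). Reads lay on the sense strand in 49.7% to 50.2% and 49.6% to 50.5% of cases, so that the libraries do not keep the strand.

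**Figure D1:**
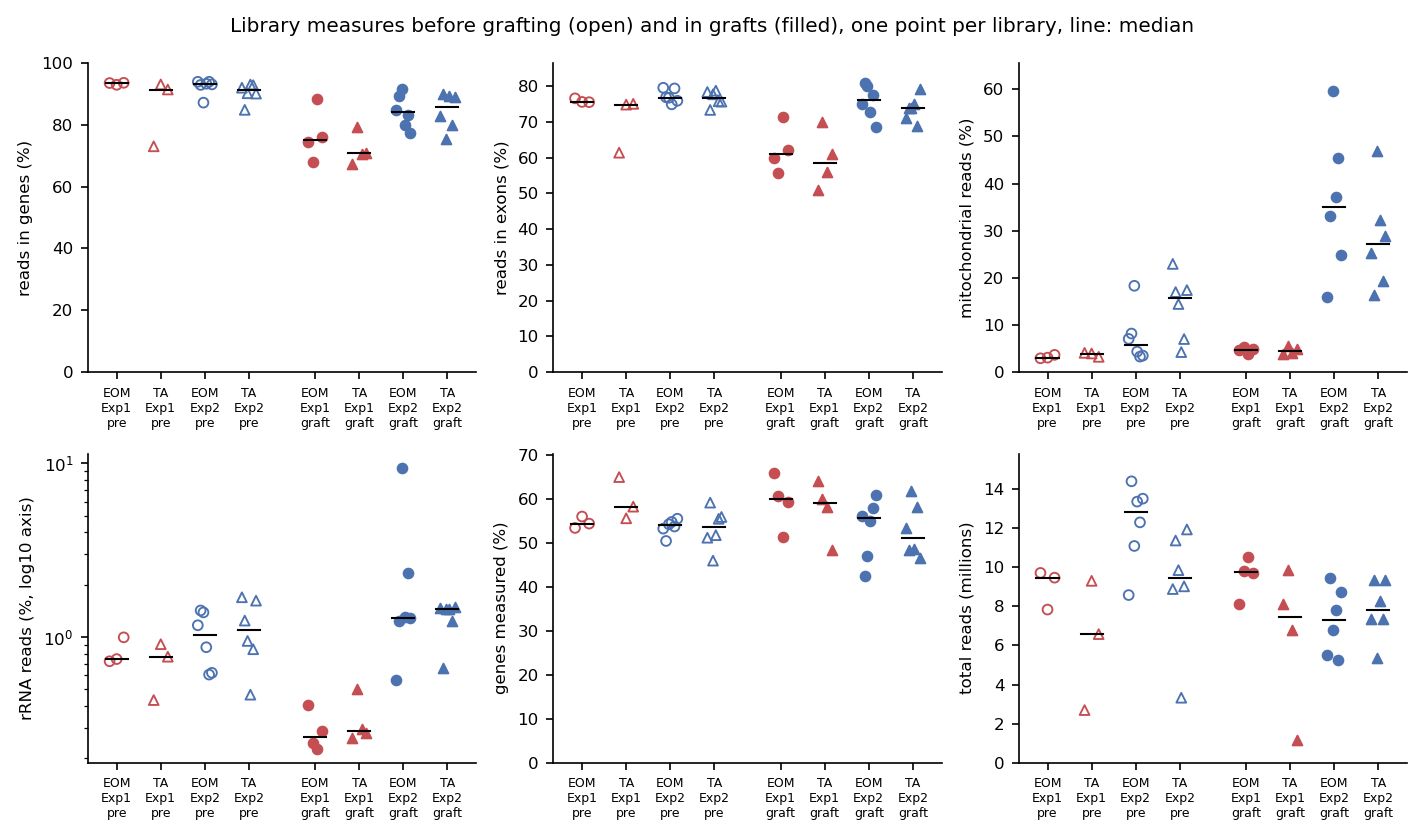
Shares of reads in genes, of reads in genes that lie in exons, of mitochondrial and rRNA reads and of genes measured, as percent (y axes). Total reads are at lower right, and the rRNA axis is logarithmic. Points are EOM and TA libraries of each experiment before grafting (open) and in grafts (filled), with the median as a line. The 8 mitochondrial values of the grafts of Experiment 1 sit between 3.72% and 5.45%, below all 12 grafts of Experiment 2.

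Libraries of 500 cells made from the same donors before grafting serve as the background for these measures. Among those with over 500000 reads, the 6 of Experiment 1 had 2.91% through 3.43% to 4.06% of mitochondrial reads. The 12 of Experiment 2 had 3.27% through 7.59% to 22.9%, so that the pooled ranges overlapped before grafting. EOM libraries overlapped, at 2.91% to 3.64% and 3.27% to 18.3%. TA libraries did not, at 3.22% to 4.06% in Experiment 1 and 4.23% to 22.9% in Experiment 2. Averaged over donors, the mitochondrial share changed on grafting by 0.942 ± 0.98 points in Experiment 1 (SD, n = 4) and by 21.5 ± 11.9 points in Experiment 2 (SD, n = 6). The changes differed by -20.5 points (exact permutation test, adjusted p = 0.0222). Gene by gene on the log2 scale, the same contrast called 0 of 16226 genes in limma, so no mitochondrial gene passed it. The exon share changed by -12.1 ± 1.39 points in Experiment 1 and by -2.17 ± 2.90 points in Experiment 2, a difference of -9.91 points (exact permutation test, adjusted p = 0.0222). Each donor of Experiment 1 lost between 10.3 and 13.4 points of exon share, more than any donor of Experiment 2, the largest loss of which was 5.91 points. For 2 of the 4 donors of Experiment 1 this rests on 1 origin, TA in mouse 1 and EOM in mouse 5. The TA library of mouse 1 before grafting had an exon share of 61.4%. The changes in rRNA share differed by -1.38 points without passing the adjustment (exact permutation test, adjusted p = 0.0833). The number of cells per library fell from 500 before grafting in both experiments, and its part in these changes was not tested.

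Gene by gene, the experiments differed in the mitochondrial mRNAs. Of 14734 genes tested on the deposited log2 RPM values with origin as covariate, 14 were lower in Experiment 1 and 0 were higher (limma, adjusted p under 0.05 and log2 fold change beyond 1), which is 0.095% of genes called, 0.095% lower and 0.0% higher. The 14 are all 13 mitochondrial protein genes and *Gm10222*, a pseudogene on chromosome 1. The 8 and 12 libraries did not overlap for the same 14 genes, again 0.095% of those tested, and for 1 gene in the other direction, the predicted gene *Gm14233* (0.00679%), with 1 to 16 counts in Experiment 1 and 0 to 8 in Experiment 2, whose difference of 2.28 did not pass the test (SE 0.70, limma adjusted p = 0.475). At an unadjusted p under 0.05, 1394 genes were found, 1327 of them with higher values in Experiment 1. Since log2 RPM is a share of the library, the large mitochondrial share of Experiment 2 shifts all other genes, and the median difference over all genes was 0.52. On recovered counts scaled by TMM in edgeR that median was 0.05, with 14 genes lower and 0 higher (0.095% called) and 680 at an unadjusted p under 0.05, of which 422 had higher values in Experiment 1. Scaled without the mitochondrial genes, 15 of 16904 genes were lower in Experiment 1, these 14 and the fast troponin gene *Tnnt3*, and 0 were higher (limma, 0.0887% called), with a median difference of 0.10.

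Of the mitochondrial genes, 8 that encode subunits of complexes I, III and IV were lower in Experiment 1 by similar amounts. *mt-Nd5*, a core subunit of complex I, ran from 12.38 through 12.70 to 12.82 log2 RPM in Experiment 1 and from 14.59 through 15.58 to 16.61 in Experiment 2. The difference was -2.99 (SE 0.30, limma adjusted p = 5.1e-08), and the lowest library of Experiment 2 lay above the highest of Experiment 1. *mt-Nd1* and *mt-Nd2*, of the same complex, differed by -2.84 (SE 0.31) and -2.65 (SE 0.31), *mt-Nd4* by -2.54 (SE 0.31), *mt-Nd6*, the protein gene on the other strand of the mitochondrial genome, by -2.67 (SE 0.31) and *mt-Nd3* by -3.0 (SE 0.35). *mt-Co1*, the catalytic subunit of cytochrome c oxidase (complex IV), ran from 14.54 through 14.82 to 15.16 in Experiment 1 and from 16.75 through 17.48 to 18.27 in Experiment 2, a difference of -2.65 (SE 0.31, limma adjusted p = 4.98e-07). *mt-Cytb*, of complex III, differed by -2.66 (SE 0.31). These 8 differences lay between -3.0 and -2.54, and the genes held 98.1% to 99.9% of the mitochondrial counts of every graft.

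A further 5 mitochondrial genes differed more. *mt-Nd4l*, a small subunit of complex I, had 51, 27, 102 and 21 recovered counts in the EOM grafts of Experiment 1 and 22, 51, 15 and 2 in the TA grafts, against 181 to 3068 in EOM grafts and 344 to 1765 in TA grafts of Experiment 2. Its log2 RPM ran from 3.05 through 3.64 to 5.59 and from 7.31 through 9.33 to 11.16, a difference of -5.22 (SE 0.47, limma adjusted p = 4.98e-09). *mt-Co2* and *mt-Co3*, subunits of complex IV, differed by -4.58 (SE 0.47) and -4.31 (SE 0.52), and *mt-Atp8* and *mt-Atp6*, subunits of the ATP synthase, by -4.38 (SE 0.54) and -4.09 (SE 0.50). Together these 5 genes held 0.0731% to 0.210% of mitochondrial counts in Experiment 1 and 0.171% to 1.89% in Experiment 2. *mt-Nd4l* alone held 0.0239% ± 0.0194 (SD, n = 8) against 0.125% ± 0.0692 (SD, n = 12), and the libraries overlapped for this share as for that of each of the 13 genes. By contrast, *mt-Co1* held 35.4% ± 3.67 and 33.6% ± 1.89 and *mt-Nd1* held 24.5% ± 0.793 and 26.5% ± 1.45 of mitochondrial counts. *mt-Nd5* held 7.43% ± 0.403 against 8.93% ± 0.564, and only the highest library of Experiment 1 and the lowest of Experiment 2 met, at 8.06% each.

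These 5 genes are also those that the nuclear genome holds in full. Every 75-base stretch of *mt-Co2*, *mt-Atp8*, *mt-Atp6*, *mt-Co3* and *mt-Nd4l* has an exact copy between bases 24612404 and 24615565 of chromosome 1 in GRCm38, in a nuclear insertion of mitochondrial DNA. The share of such stretches was 98.9% for *mt-Nd3*, 61.5% for *mt-Nd4*, 39.8% for *mt-Co1*, 5.71% for *mt-Nd2*, 1.66% for *mt-Nd5* and 0% for *mt-Nd1*, *mt-Nd6* and *mt-Cytb*. A read of 75 bases from a copied stretch has more than 1 exact place in the genome, and how such reads were counted is not stated in the sources used here. The levels of the copied genes are therefore uncertain, and the part of this in their larger difference was not tested.

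*Gm10222*, the only called gene outside the mitochondrial genome, is 1 of these copies. It lies at chr1:24612404-24612700 on the minus strand, is typed as an unprocessed pseudogene by GENCODE, and has the same 297 bases as *mt-Nd4l* at MT:9877-10173 on the plus strand, with 0 differences. The sequence is shown once because no read within it can be told apart between the pair. It was read from GRCm38, 5′ to 3′, with the start and stop codons of *mt-Nd4l* in capitals.
mt-Nd4l and Gm10222: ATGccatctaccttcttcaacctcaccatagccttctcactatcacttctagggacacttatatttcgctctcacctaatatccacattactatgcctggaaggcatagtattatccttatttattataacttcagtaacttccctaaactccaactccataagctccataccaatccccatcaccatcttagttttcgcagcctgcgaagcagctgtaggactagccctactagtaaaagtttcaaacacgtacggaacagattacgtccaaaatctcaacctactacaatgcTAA
*Gm10222* had 5, 1, 7 and 3 recovered counts in the EOM grafts of Experiment 1 and 0, 6, 5 and 0 in the TA grafts, against 13 to 86 in EOM grafts and 18 to 206 in TA grafts of Experiment 2. Its log2 RPM differed by -4.19 (SE 0.68, limma adjusted p = 0.000427), close to the 5 copied mitochondrial genes, and all 12 libraries of Experiment 2 lay above all 8 of Experiment 1.

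**Figure D2:**
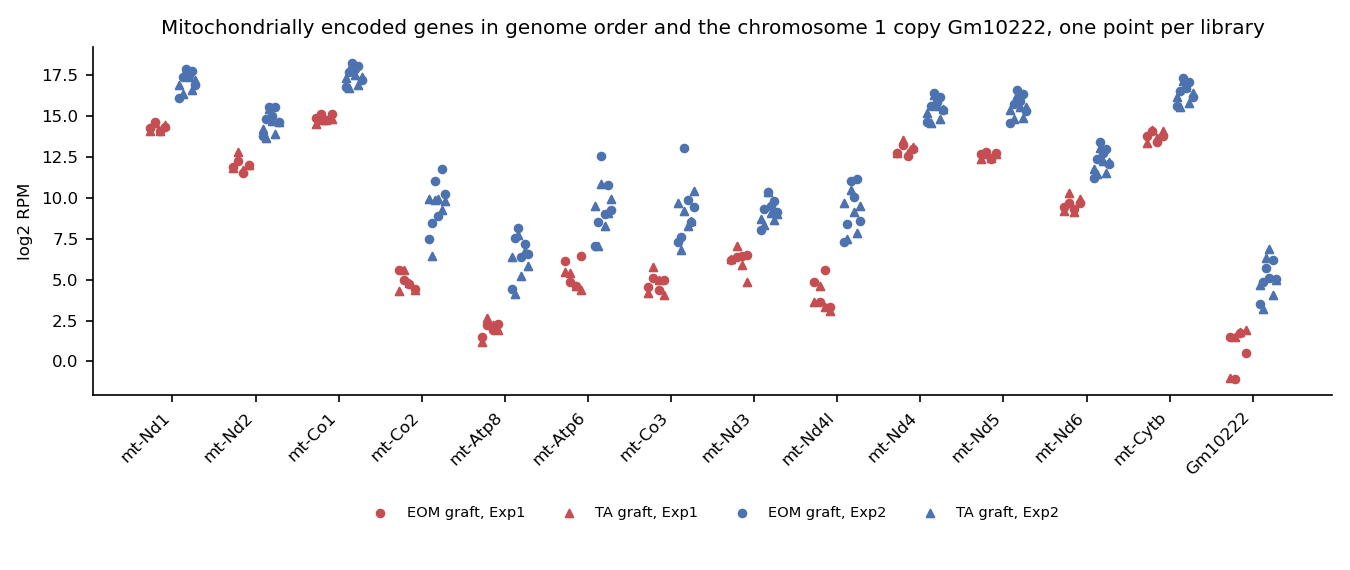
The 13 mitochondrial protein genes and *Gm10222*, as log2 RPM per graft (y axis), with each point a library, coloured by experiment. In each of the 14 genes all grafts of Experiment 1 lie below all grafts of Experiment 2.

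The mitochondrial difference stood under most other analyses. Leaving out any 1 of the 20 libraries kept all 13 genes and *Gm10222* called. EOM grafts alone gave 9 of the 13 genes, with 9 genes lower and 0 higher over all genes tested. TA grafts alone gave 5 of the 13, with 5 genes lower and 1 higher, *Hbb-b1*, over all genes tested. The difference in EOM minus that in TA did not pass the test for any of the 13 genes (lowest limma adjusted p = 0.968). With the exon share as covariate 3 of the 13 genes stayed called, with differences of -4.21 to -2.05 over the 13 genes. These 3 were the only genes called lower among all genes tested, and 0 were higher. Among the 14 grafts within the limits of the study, 2 of which belong to Experiment 1, the 13 differences ran from -4.32 to -2.45 and 0 genes were called (limma adjusted p = 0.116 to 0.641 for these 13 genes, 483 of 12377 genes at an unadjusted p under 0.05). With DESeq2 on recovered counts, 30 genes were lower and 1 was higher (0.21% called, 0.204% lower and 0.00679% higher).

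Nuclear genes of the same complexes did not follow. Of 85 nuclear subunits of the respiratory chain tested (0 called, 12 at an unadjusted p under 0.05), 78 had higher values in Experiment 1, as did 79.9% of all genes in this fit (53.7% with edgeR), and their median difference was 0.54 against 0.52 over all genes. *Uqcrh*, a subunit of complex III, had the lowest p, with 8.0 through 8.54 to 9.51 log2 RPM in Experiment 1 and 5.47 through 7.86 to 8.55 in Experiment 2, a difference of 1.01 (SE 0.35, limma adjusted p = 0.486). *Cox6a2*, the form of a complex IV subunit found in heart and skeletal muscle, had a difference of -1.84 (SE 0.78, limma adjusted p = 0.495) and 0 counts in 5 of 8 and 2 of 12 grafts. Genes of the mitochondrial ribosome, which translates the mRNAs of the mitochondrial genome, had a median difference of 0.68 over 73 genes. Of these, 0 were called and 4 were at an unadjusted p under 0.05, against 1394 of all 14734 genes. Relative to all genes that median was 0.16, and it turned to -0.019 with edgeR and -0.028 with DESeq2.

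Of all other gene lists, myofibre genes stood farthest from all genes in limma with origin as the only covariate. With exon share added as covariate, endothelial genes lay at -2.08 and myofibre genes at -2.01 relative to all genes. Of 18 genes of the contractile apparatus and energy supply of mature fibres that were tested, 16 had lower values in Experiment 1, 13 at an unadjusted p under 0.05, and 0 passed the adjusted test in limma. Over all 14734 genes 79.9% had higher values, and of the 1394 at an unadjusted p under 0.05 only 67 had lower values. With each library centred on its median limma called 2 of them lower, *Acta1* and *Tnnt3* (0.109% of all genes called, all of them lower and 0.0% higher). Without the TA graft of mouse 5 of Experiment 1 it called 3 lower, *Acta1*, *Myh4* and *Mylpf* (0.124% called, all of them lower). Their median difference was -1.88, or -2.40 relative to all genes, and it stayed between -2.95 and -1.69 relative to all genes in 37 analyses. Some lists of other cell types also lay below all genes, with medians of -1.01 relative to all genes for endothelial genes (12 of 14 with lower values), -0.88 for fibro-adipogenic genes (7 of 12) and -0.70 for mural genes (4 of 8), and 0 genes called in each. The endothelial median was -0.40 relative to all genes with edgeR, -0.42 with DESeq2 and -2.21 among grafts within the limits, where Experiment 1 has 2 grafts. The 3 erythroid genes tested had -0.99 in limma and 2.44 with edgeR. *Acta1*, skeletal α-actin, had 5.37, 2.49, 3.16 and 4.86 log2 RPM in the EOM grafts of Experiment 1 and 4.55, 5.81, 4.73 and 5.96 in the TA grafts, against 5.18 through 6.88 to 9.05 in Experiment 2. The ranges overlapped, with 5 grafts of Experiment 1 below all of Experiment 2, and the difference of -2.26 was just short of the threshold (SE 0.50, limma adjusted p = 0.0548). *Tnni2*, the inhibitory troponin of fast fibres, had 0 to 59 counts in Experiment 1 and 35 to 226 in Experiment 2, a difference of -3.08 (SE 0.70, limma adjusted p = 0.0755). DESeq2 called 10 of the 18 lower (0.204% of all genes), the actin *Acta1*, the myosin genes *Myh4*, *Myl1* and *Mylpf*, the troponin genes *Tnnc2*, *Tnni2* and *Tnnt3*, *Ttn*, *Mb* and *Pvalb*, and edgeR called 0.

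Summed over the 20 listed myofibre genes, the grafts of Experiment 1 held 288 through 327 to 788 nuclear CPM (counts scaled to the sum over all nuclear genes of a library), and those of Experiment 2 held 337 through 1168 to 6969. The highest value of Experiment 2 belonged to the TA graft of mouse 3, which has 257135 nuclear counts, and the highest of Experiment 1 to the TA graft of mouse 5, the shallowest with 185328. The cells were gated on viability, size, granularity and GFP. In bulk RNA, fewer cells of a type and less of its mRNA per cell cannot be told apart.

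**Figure D3:**
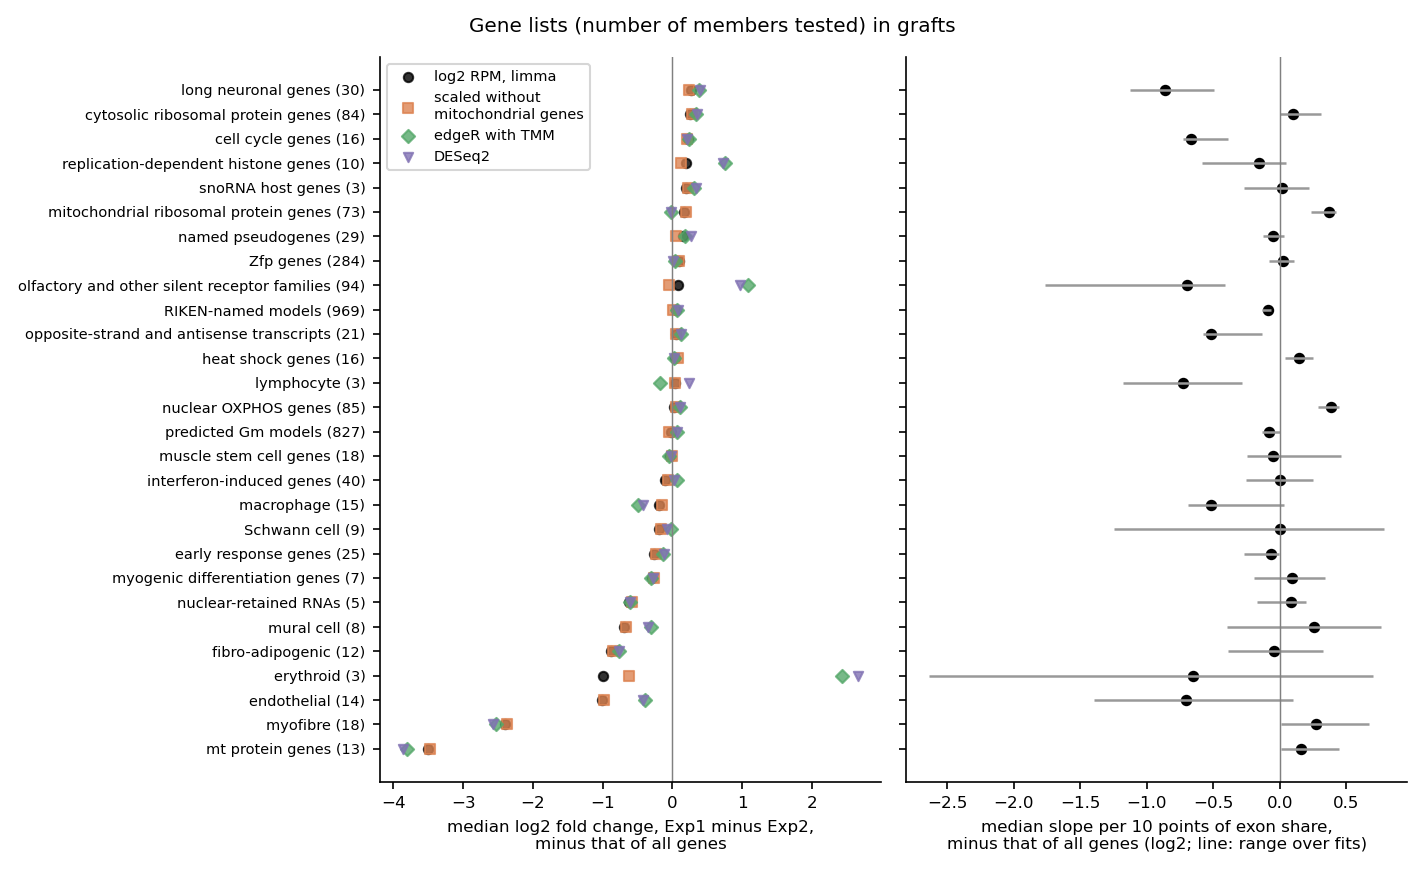
Median difference of each gene list between the experiments (left) and median slope on exon share within experiments (right), each relative to all genes on the log2 scale (x axes), with the values of 4 analyses as symbols on the left and the range over 25 analyses as a line on the right. Mitochondrial and myofibre genes lie farthest to the left in the left panel, and long neuronal genes and silent families lie to the left of 0 in the right panel.

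The stem cell program differed less than the spread between libraries. *Pax7* ran from 5.28 through 7.43 to 9.02 log2 RPM in Experiment 1 and from 3.17 through 6.73 to 9.11 in Experiment 2, a difference of 0.69 (SE 0.62, limma adjusted p = 0.671), and it was detected in all 20 grafts with 11 to 1100 counts. *Myf5*, a myogenic determination factor, differed by 0.48 (SE 0.64, limma adjusted p = 0.776) and *Myod1*, which drives activation and commitment, by -0.01 (SE 0.66, limma adjusted p = 0.996). With cell number as covariate *Pax7* had -0.46 and *Myf5* -0.68, and in TA grafts alone they had -0.25 and -0.48. The sign of *Myf5* also turned with edgeR (-0.085) and DESeq2 (-0.11), and that of *Myod1* turned in EOM grafts alone, within the limits of the study, with exon share as covariate and on leaving out single grafts. Of 18 genes of stem cell identity and quiescence, 0 were called in limma and 0 were at an unadjusted p under 0.05. *Itga7*, an integrin of MuSCs, and *Notch3*, a receptor of the Notch pathway that maintains quiescence, had the lowest p of the list, with differences of 0.72 (SE 0.39, limma adjusted p = 0.552) and 0.59 (SE 0.38, limma adjusted p = 0.585). Differentiation genes had a median of 0.22 over 7 genes and cell cycle genes 0.74 over 16, with 0 called in either. Relative to all genes these medians were -0.30 and 0.22. The differentiation median itself turned its sign with edgeR (-0.26) and DESeq2 (-0.29).

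Cytosolic ribosomal protein genes had higher values in Experiment 1 in 81 of 84 cases, 44 of them at an unadjusted p under 0.05 and 0 called, where 79.9% of all genes had higher values and 1394 of 14734 were at an unadjusted p under 0.05. Their median was 0.76, or 0.24 relative to all genes, and it stayed above all genes in each of 37 analyses, from 0.01 with cell number as covariate to 0.50 without a filter. *Rps6* differed by 0.97 (SE 0.34) and *Rpl41* by 0.93 (SE 0.33), each with a limma adjusted p of 0.486. Their summed share was 43677 through 70413 to 105769 nuclear CPM in Experiment 1 and 34918 through 59663 to 77557 in Experiment 2, so that libraries overlapped. Processed pseudogenes, many of them copies of ribosomal protein mRNAs, had 2441 ± 872 (SD, n = 8) against 1755 ± 480.0 (SD, n = 12) nuclear CPM and also overlapped.

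Among stress and activation genes none was called. The chaperone gene *Hspa1b* had a difference of 2.01 (SE 0.64, limma adjusted p = 0.475) and *Dnaja1* of 0.81 (SE 0.30, limma adjusted p = 0.486), with all 16 heat shock genes at higher values in Experiment 1 (79.9% of all genes) and a median of 0.56, near that of all genes. The early response genes, which include AP-1 factors induced by dissociation, had a median of 0.25 over 25 genes, 0.27 below all genes, and stayed below in 37 analyses. Interferon-induced genes had a median of 0.41 over 40 genes, which was -0.11 relative to all genes in limma and 0.059 with edgeR.

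Markers of other cell types were present in both experiments. Summed endothelial markers ran from 272 through 8103 to 11936 nuclear CPM in Experiment 1 and from 1771 through 8497 to 13439 in Experiment 2, with all 14 listed genes detected in at least 1 graft. Fibro-adipogenic markers ran from 2471 to 9929 and from 2362 to 18296, mural cell markers from 203 to 7198 and from 461 to 8478, Schwann cell markers from 255 to 2659 and from 238 to 3625, macrophage markers from 33.6 to 791 and from 3.73 to 2328, and erythroid markers from 0 to 6334 and from 0 to 6232. The 18 stem cell genes summed to 3299 to 21096 and 3189 to 21548 on the same scale. Lymphocyte markers were lowest, at 0 to 16.8 and 0 to 23.7, with *Cd3d*, *Cd79b*, *Cd8a* and *Nkg7* at 0 counts in all 20 grafts. The ranges of the 2 experiments overlapped for each of these cell types, and their part in the differences above was not tested.

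Within the experiments, exon share was set against every gene, with experiment and origin as covariates and the slope given per 10 points of exon share. Mitochondrial reads enter the exon share here too. No gene passed the test (limma, 0.0% called in either direction), and 785 of 14734 were at an unadjusted p under 0.05 (868 with edgeR). *Acta2*, the actin of smooth muscle, had the steepest positive slope among the named genes at 2.38 (SE 0.57, limma adjusted p = 0.865), followed by *Mdh1*, the cytosolic malate dehydrogenase, at 1.33 (SE 0.41, limma adjusted p = 0.904). *Fli1*, an endothelial and blood transcription factor, had -1.80 (SE 0.64) and *AW112010* had -1.64 (SE 0.56), both with a limma adjusted p of 0.904.

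Gene classes differed in their median slope, which is given here as a description. Relative to all genes, genes spanning over 250 kb had a median slope of -0.32, those of 100 to 250 kb -0.11, those of 50 to 100 kb -0.05 and those of 5 to 20 kb 0.068, and each of these kept its sign in 25 analyses. Genes of 20 to 50 kb had 0.014 and those under 5 kb 0.035, and each turned its sign in 1 analysis. A list of 30 long genes used mainly by neurons had -0.87 (range -1.13 to -0.49), lincRNAs -0.45 (range -0.55 to -0.35) and 21 transcripts named as opposite or antisense to other genes -0.52 (range -0.57 to -0.13). The 449 genes typed as antisense by GENCODE had -0.11 (range -0.13 to 0.034). Reads of such transcripts and of the genes they overlap cannot be separated without strand. Cell cycle genes had -0.66 (range -0.72 to -0.39). Markers of other cell types had median slopes of either sign, with -0.70 for endothelial (range -1.40 to 0.10), -0.73 for lymphocyte (range -1.18 to -0.28), -0.52 for macrophage (range -0.69 to 0.034) and -0.65 for erythroid genes (range -2.64 to 0.70), where the lymphocyte and erythroid lists have only 3 tested genes each. Mural genes had 0.26, myofibre genes 0.27, Schwann cell genes 0.0022 and fibro-adipogenic genes -0.046. On the positive side stood the respiratory chain subunits of the nuclear genome at 0.38 (range 0.29 to 0.45) and genes of the mitochondrial ribosome at 0.37 (range 0.24 to 0.42). Genes with few counts sit at the detection floor of a library, 0.9 of a count, and the floor rises as depth falls.

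Between the experiments the order of these classes depended on the analysis. The median difference of genes spanning over 250 kb was 0.03 above that of all genes, that of long neuronal genes 0.26 and that of lincRNAs 0.05, and each turned its sign in at least 1 analysis. With exon share as covariate they lay at -0.38, -0.86 and -0.44 relative to all genes, and among grafts within the limits at -0.30, -0.55 and -0.28. *Ctnna2*, a catenin of neurons with a gene over a megabase long, had a difference of 1.57 (SE 0.64, limma adjusted p = 0.49), which turned to -0.48 with exon share as covariate. The share of nuclear counts in each span class overlapped between experiments, for example 25313 through 27692 to 29324 nuclear CPM over 250 kb in Experiment 1 against 24096 through 28360 to 29953 in Experiment 2.

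Olfactory receptor genes and other families with no known role in muscle (vomeronasal and bitter taste receptors, keratin-associated proteins and β-defensins) served as a measure of counts outside the muscle transcriptome. Their 1530 genes held 800, 1141, 157 and 597 nuclear CPM in the EOM grafts of Experiment 1 and 1058, 733, 797 and 1203 in the TA grafts, against 167 through 322 to 1980 in Experiment 2. The lowest value of Experiment 1, 157, came from the EOM graft of mouse 4, which has the highest exon share of that experiment. The highest of Experiment 2, 1980, came from the TA graft of mouse 3, which has the lowest share of reads in genes of that experiment, 75.5%, but an exon share of 73.8%, the median of its group, and only 257135 nuclear counts. The graft with the lowest exon share of all, 51.1% in the TA graft of mouse 1 of Experiment 1, had 1058. The means were 811 ± 339 (SD, n = 8) and 540.0 ± 492 (SD, n = 12), and the experiments overlapped. Of 1086 olfactory receptor genes, 514 had a count in at least 1 graft of Experiment 1 and 405 in Experiment 2, with 544 and 310 nuclear CPM. The slope of the 94 members tested was -0.70 per 10 points of exon share relative to all genes (range -1.76 to -0.41), and between experiments their median lay 0.074 above that of all genes in limma, 1.08 above with edgeR and 0.97 above with DESeq2, and turned its sign in 9 of 37 analyses, to -0.86 with exon share as covariate. *Olfr129* had 0 to 13 counts and 0 to 3 counts, and *Tas2r126*, a bitter taste receptor, 0 to 38 and 0 to 24.

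**Figure D4:**
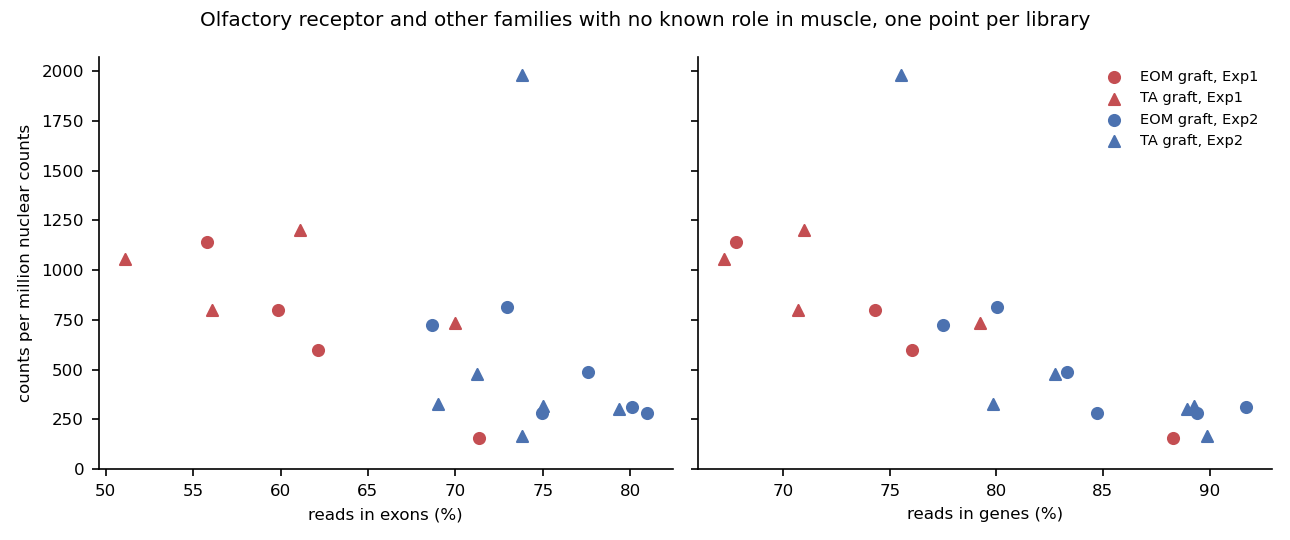
Counts of olfactory receptor and other families with no known role in muscle in nuclear CPM per graft (y axis), coloured by experiment. The x axes are the exon share of reads in genes (left) and the percent of reads in genes (right). The TA graft of mouse 3 of Experiment 2 lies highest at 1980, and the EOM graft of mouse 4 of Experiment 1 lies at 157.

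Detection of nuclear genes was compared at equal depth, by the number expected in a draw of 185328 nuclear counts from each graft. Grafts of Experiment 1 then had 8852 through 10800 to 11566 nuclear genes, and those of Experiment 2 had 8468 through 10035 to 11361. The 50 genes with most counts took 13.6% to 17.5% of nuclear counts in Experiment 1 and 14.5% to 17.1% in Experiment 2, so that the experiments overlapped in both measures. The graft with fewest genes in Experiment 1 was the shallow TA graft of mouse 5, and that of Experiment 2 was the EOM graft of mouse 2, which has the highest exon share of all 20, 80.9%. At this depth 1.10% to 6.61% of the silent family genes had a count in Experiment 1 and 1.02% to 9.06% in Experiment 2, and 16.1% to 58.6% and 13.5% to 54.3% of the long neuronal genes.

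**Figure D5:**
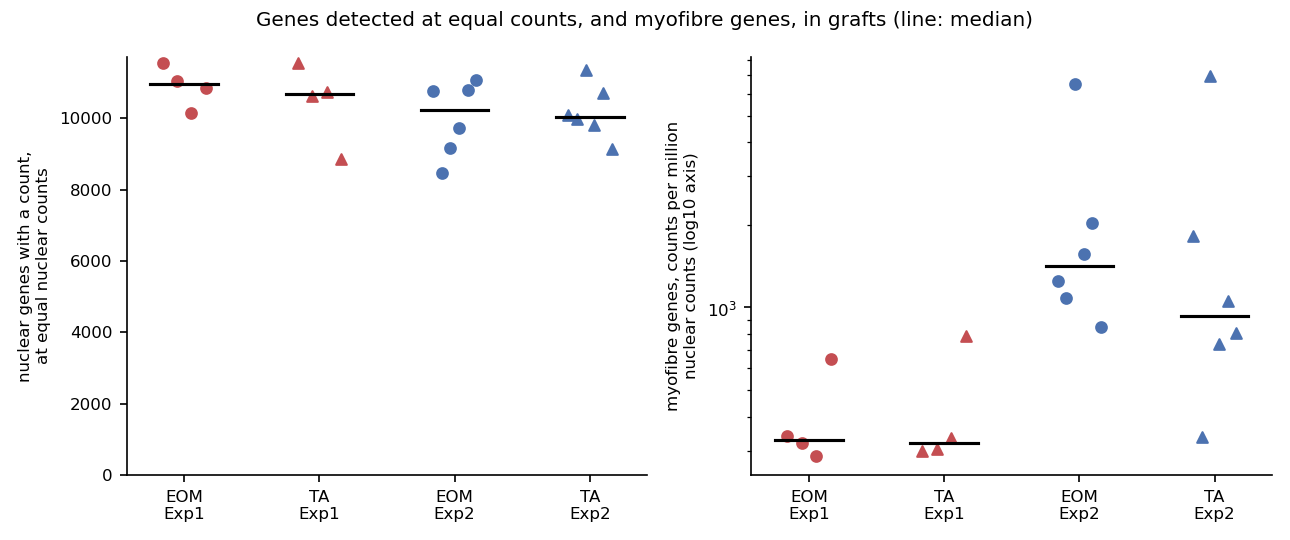
Nuclear genes expected in 185328 nuclear counts (left) and summed myofibre genes in nuclear CPM on a logarithmic axis (right). Points are EOM and TA grafts of each experiment, 1 point per graft, coloured by experiment, with the median as a line. Myofibre counts run from 288 to 788 in Experiment 1 and from 337 to 6969 in Experiment 2.

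The experiment difference in EOM grafts was set against that in TA grafts for every gene. None passed the test in limma (0.0% called, 676 of 14734 at an unadjusted p under 0.05, 777 with edgeR). Haemoglobin genes, which mark red blood cells, came closest among the listed genes. *Hba-a1* ran from -1.25 through 4.81 to 11.58 log2 RPM in Experiment 1 and from -0.97 through 5.53 to 11.27 in Experiment 2, and the difference of the experiments was -7.19 in EOM grafts and 6.24 in TA grafts (difference of differences -13.4, limma adjusted p = 0.248). Leaving out the EOM graft of mouse 1 or the TA graft of mouse 4 of Experiment 1, or the EOM graft of mouse 5 or the TA graft of mouse 2 of Experiment 2, brought 3 to 5 genes past the threshold, mostly haemoglobins. Setting the experiment difference of grafts against that before grafting gave 0 genes of 16226 as well (limma, 0.0% called, 738 at an unadjusted p under 0.05, 1052 with edgeR), and mitochondrial genes had limma adjusted p-values of at least 0.95 there.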

How the data were processed

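RNA libraries of 20 grafts were compared between experiments, and 18 of 20 libraries made before grafting, those with over 500000 reads, served as background. According to the study's methods, the authors trimmed reads with Trim Galore 0.4.4, aligned them to GRCm38 with HISAT2 2.1.0 and corrected them for library size in SeqMonk. The deposited table holds log2 RPM values, 1 column per library, and the deposited quality tables hold total read counts and the percent of reads per class. Which annotation was counted, and how multiply aligned reads were treated, is not given in the sources used here. RPM is relative to all aligned sequence, so a high mitochondrial share lowers all other genes.

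In each library the lowest value stands for 0 counts, set at 0.9 of a count, and 99.997% of values became whole counts (within 0.1) when scaled to it. These recovered counts, about 153 to 157 exonic bases each, served for edgeR 4.0.16, DESeq2 1.42.0, shares of nuclear counts and detection. Exonic bases are the total read length times the gene share times the exon share, which takes the exon share over reads in genes. Of 25965 rows, 65 with repeated identifiers were left out. Coordinates are those of the table on GRCm38, and gene types were matched by identifier to GENCODE M21 for 24987 of 25900 genes.

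Library measures were averaged over the EOM and TA graft of a donor and compared by exact permutation over donors, two-sided, with Benjamini-Hochberg adjustment over 7 measures (Python 3.11.15, scipy 1.17.1). Genes above log2 RPM 1 in at least 4 libraries entered a limma 3.58.1 fit with trend (R 4.3.3), with origin as covariate. They were called at an adjusted p under 0.05 and a log2 difference beyond 1. In the TA graft of mouse 5 of Experiment 1 the value of 0 counts is 1.90, so every gene counted as above the limit there. Without that graft 13661 genes were tested, against 14734. The scripts were tested on simulated data. All differences are Experiment 1 minus Experiment 2. Groups of the labels were used throughout, and donor numbers pair EOM and TA grafts within an experiment only. Mean deviations from the group of the 2 grafts of a donor correlated with -0.101 to 0.0986 over 10 donors, and a donor block was an alternative.

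The members and gene lists were chosen with earlier results of these data known. Named genes are up to 8 with the largest change among called genes without overlap and a mean log2 RPM of at least 5, the 2 of lowest p in each list, *Pax7*, *Myf5* and *Myod1*, and the 2 of lowest p per direction of the exon slope. Values are printed for part of the genes this rule chose, and 1 gene is not reported here. Other mitochondrial genes, *Gm14233* and genes called by an alternative were chosen after their values were seen. Alternatives were other scalings, filters, pseudocounts and tools, covariates, 1 origin, grafts within the limits and leaving out each graft. Intervals of single shares were not computed, since libraries are the replicates. Bisulfite libraries were not analysed here.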

Additional observations from a re-analysis of the deposited data

Results flagged for a closer look

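Of 112 groups of 4 to 6 grafts examined for a value far from the rest, 10 had one, and chance gives about 1 in 20 (5%). The share of rRNA reads stood apart at 9.44% in the EOM graft of mouse 3 of Experiment 2 (others 0.567% to 2.35%), at 0.502% in the TA graft of mouse 3 of Experiment 1 (others 0.263% to 0.295%) and at 0.658% in the TA graft of mouse 2 of Experiment 2 (others 1.24% to 1.48%). The TA graft of mouse 3 of Experiment 2 had 1980 nuclear CPM of olfactory receptor and other silent families (others 167 to 476) and 10.39 log2 RPM of *mt-Nd3* (others 8.38 to 9.11). In the TA graft of mouse 2 of Experiment 2, *mt-Co2* had 6.48 log2 RPM (others 9.27 to 9.94). *Gm10222* had -0.99 log2 RPM, the value of 0 counts, in the TA graft of mouse 1 of Experiment 1 (others 1.52 to 1.90). The 1.90, in the shallower TA graft of mouse 5, is also the value of 0 counts, so that this gap lies between the floors of these libraries. *Myf5* had 4.72 log2 RPM in the TA graft of mouse 3 of Experiment 1 (others 7.05 to 7.48), *Myod1* 2.52 in the EOM graft of mouse 4 of Experiment 2, made from 9 cells (others 6.01 to 7.97), and *Gm14233* 2.22 in the EOM graft of mouse 3 of Experiment 1 (others 2.72 to 2.78).

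Between the experiments, the change from before to after grafting differed for 3 library measures by exact permutation over donors (adjusted p = 0.0222 each). The differences were 4945370 total reads, -9.91 points of exon share and -20.5 points of mitochondrial share. Their causes were not tested.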

How the results depend on the processing

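Differences are Experiment 1 minus Experiment 2. With grafts within the limits only, the difference was -0.648 points for reads in genes, -4.12 for exons (adjusted p = 0.357, exact permutation test), -27.4 for mitochondrial reads, -1.63 for rRNA (adjusted p = 0.0952 for each of these, exact permutation test) and 0.0128 for the sense strand. EOM grafts alone gave -7.84 points in genes, and TA grafts alone gave -1367546 total reads. Leaving out 1 graft at a time gave -609589 to 1524925 total reads, -12.3 to -7.90 points in genes, -2.34 to -1.02 in rRNA, -0.0725 to 0.0398 on the sense strand and 3.98 to 6.86 in genes measured. Exon and mitochondrial shares kept their calls whichever single graft was left out. Within the limits Experiment 1 has 1 graft per origin, which allows no p under 0.0408 before adjustment (exact permutation test), so that the calls could hardly be kept. The mitochondrial difference was about the same there and the exon difference smaller. The donor block in limma left 14 genes lower and 0 higher. The direction of *Hba-a1*, *Alas2*, *Myod1*, *Pax7* and *Myf5* depended on the setting.

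Genes called lower were 30 with DESeq2, 9 in EOM grafts alone, 5 in TA grafts alone, 3 with exon share as covariate and 0 within the limits (limma, 483 at an unadjusted p under 0.05). Genes called higher were 1 with DESeq2 (*Memo1*, chosen after its value was seen), 1 in TA grafts alone (*Hbb-b1*) and 3 with sample weights (*9630014M24Rik*, *Ankrd13d* and *Lrrn1*). Leaving out 1 graft gave 14 to 17 lower and 0 to 3 higher, and for the difference of EOM minus TA 0 to 5 lower, *Hba-a1*, *Hba-a2*, *Hbb-b1*, *Hbb-b2* and *Tmem204*. Added after seeing the data, scaling without mitochondrial genes and without the TA graft of mouse 5 of Experiment 1 gave 14 lower, and edgeR without it 15. The share of genes with higher values in Experiment 1 was 79.9% in limma, 53.7% in edgeR, 48.9% in DESeq2 and 56.9% with scaling without mitochondrial genes. In all, 356 alternative values of the main results kept direction and side of the threshold, 18 counts of calls moved from or to 0 or by over 1.5 times, 9 values reversed, 7 lost a call and 1 gained one, and the causes of the changes were not tested.

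Single genes that turned sign with exon share as covariate were *Hist1h4i* (-0.36), *Ctnna2* (-0.48), *Myh8* (-0.66), *Itgam* (-0.94), *Cd4* (-0.27) and *Myod1* (1.48). Within the limits *Itgam* had -0.79 and *Myod1* 0.97. With cell number as covariate *Mir17hg* had -0.14, *Alas2* 0.32, *Hba-a1* 1.32, *Pax7* -0.46 and *Myf5* -0.68. In TA grafts alone *Mir17hg* had -0.15, *Alas2* 3.21, *Hba-a1* 6.24, *Pax7* -0.25 and *Myf5* -0.48, and in EOM grafts alone *Mbp* had -0.16, *Myh11* -0.20 and *Myod1* 0.99. With edgeR *Cd4* had -0.24, *Col3a1* -0.15, *Alas2* 0.11, *Hba-a1* 2.49 and *Myf5* -0.085, and with DESeq2 *Col3a1* had -0.19, *Mbp* -0.067, *Alas2* 0.51, *Hba-a1* 2.65 and *Myf5* -0.11. With edgeR without the TA graft of mouse 5 of Experiment 1 *Cd4* had -0.20, *Col3a1* -0.26, *Hba-a1* 2.05 and *Myf5* -0.060, and with scaling without mitochondrial genes and without that graft *Myh8* had -0.17 and *Cd4* -0.17. Sample weights gave *Hba-a1* 0.064. Leaving out 1 graft gave -1.28 to 0.10 for *Alas2*, -1.62 to 0.60 for *Hba-a1*, -0.39 to 0.34 for *Myod1*.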

Other observations

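Gene lists not described above had 0 members called in limma apart from *Gm10222*. Among 284 numbered *Zfp* genes (zinc finger proteins, many of them transcriptional repressors), the median difference was 0.62, against 0.52 over all genes, and 24 were at an unadjusted p under 0.05, against 1394 of all 14734 genes, a share no larger than that of all genes. *Zfp606* had 3.12 (SE 0.84, limma adjusted p = 0.358), with 0 counts in 1 of 8 and 6 of 12 grafts, and *Zfp715* had 2.42 (SE 0.72, limma adjusted p = 0.467). The RIKEN-named model *9630014M24Rik* had 0 to 24 counts in Experiment 1 and a count in only 1 graft of Experiment 2 (6 counts), with a difference of 2.83 (SE 0.67, limma adjusted p = 0.101). Among RNAs held in the nucleus, *Neat1*, the scaffold of paraspeckles, had 0.61 (SE 0.32, limma adjusted p = 0.536) and the imprinted *Meg3* had -0.32 (SE 0.50, limma adjusted p = 0.807). Replication-dependent histone genes, whose mRNAs mostly lack a poly(A) tail, passed the filter in 10 of 68 cases, with a median of 0.71.

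The interferon-induced genes *Ifit3* and *Ifi27l2a* had differences of 1.55 (SE 0.64, limma adjusted p = 0.495) and 1.75 (SE 0.71, limma adjusted p = 0.488). Each had 0 counts in 1 graft of Experiment 2 and counts in all 8 grafts of Experiment 1, at 20 to 621 and 59 to 913.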
